A study of Mus musculus with 16 samples.

Results

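The genes described here are 10 members of the integrated stress response and of the group of genes whose translation is set by upstream reading frames: Atf4, Atf5, Ddit3, Ppp1r15a, Trib3, Asns, Chac1, Sesn2, Psat1 and Phgdh. They were chosen by name, and all 10 were listed in both tables, out of 16882 genes that the tables share. The mice were male C57BL/6, 10 weeks of age and kept at room temperature. Mice homozygous for uORF-TAA, an allele of Ppargc1a, were compared with Wild-type littermates in brown adipose tissue and in quadriceps muscle, with 4 libraries for each genotype and tissue, 16 altogether. Ppargc1a encodes the transcriptional coactivator PGC-1alpha, and TAA is a stop codon. Whether both tissues came from one set of animals is not stated in the labels. Each tissue has one table of the genotype comparison. No value of a single library was analysed here, so the spread among libraries enters only through the authors' standard errors.

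The integrated stress response is a translational switch. Several kinases phosphorylate the initiation factor eIF2alpha when amino acids run short, when proteins misfold in the endoplasmic reticulum, when heme is low or when viral RNA is present. Most translation then slows, while mRNAs with suitable upstream open reading frames (uORFs, short frames ahead of the main coding sequence) are translated better. ATF4 is the best known product of this switch, and it pairs with other bZIP proteins at composite elements to induce genes of amino acid synthesis, transport and feedback. In muscle and brown fat the response is known for following mitochondrial stress. Translation itself was not measured in these libraries, which report mRNA only.

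The leaders of the members were compared first, since the label of the group refers to upstream frames. In the GENCODE M21 transcripts, 7 of the 10 genes have at least 1 ATG in the 5' leader of the transcript chosen for each gene, and 53.1% of the 15429 shared genes with a coding transcript do. Upstream frames that run past the main start codon occur in 4 of the 10 members, and in 16.9% of the 15429 genes. Atf4 has 3 upstream ATGs in a leader of 594 bases, of which 1 opens a frame that overlaps the coding start. Atf5, a bZIP factor related to ATF4, has 2 in 373 bases, and 1 of them overlaps the coding start. Ddit3, which encodes the bZIP factor CHOP, has 2 in 186 bases, both closed by a stop within the leader. Ppp1r15a, which encodes GADD34, the subunit that directs phosphatase PP1 to eIF2alpha, has 7 in 764 bases, with 1 overlapping. Psat1 has 1 upstream ATG, which opens an overlapping frame, and Asns and Sesn2 have 1 each, closed within the leader. Trib3, Chac1 and Phgdh have none in that transcript. The label thus covers both genes with upstream frames and genes that are known as targets of ATF4. Ppargc1a itself has 2 upstream ATGs in a leader of 140 bases in this annotation, both closed by a stop in the leader.

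Promoters of all 10 members were searched on both strands, from 250 bases before to 50 bases after the annotated start, in RefSeq sequences of build GRCm38.p6. The composite element bound by ATF4 with C/EBP proteins was searched as TGATGNAA and matched in 3 members, Trib3, Asns and Chac1. It matched in 2.97% of the 12848 shared genes with a promoter sequence. The cAMP response element, TGACGTCA, matched in Ppp1r15a alone among the members and in 3.2% of those genes. CCACG, which forms a part of the endoplasmic reticulum stress element, matched in 8 members but also in 48.8% of those genes. No matches overlapped in the members, and a match is a description of the sequence and not a measured site. In Trib3 the match, TTACATCA on the opposite strand, lies 15 to 22 bases after the start. The stretches ahead of the start of Chac1, Asns and Ppp1r15a are shown because they hold the composite element or the cAMP response element, in capitals. They also belong to genes whose levels stood on opposite sides in the tissues, as described further on. They lie at chr2:119350992-119351241 on the + strand for Chac1, at chr6:7693210-7693459 on the - strand for Asns and at chr7:45526269-45526518 on the - strand for Ppp1r15a, each read 5' to 3'.
Chac1: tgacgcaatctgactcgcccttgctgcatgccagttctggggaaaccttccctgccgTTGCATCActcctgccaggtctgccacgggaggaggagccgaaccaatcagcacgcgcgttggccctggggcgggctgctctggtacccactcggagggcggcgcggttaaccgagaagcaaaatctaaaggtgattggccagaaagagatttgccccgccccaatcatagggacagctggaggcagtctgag
Asns: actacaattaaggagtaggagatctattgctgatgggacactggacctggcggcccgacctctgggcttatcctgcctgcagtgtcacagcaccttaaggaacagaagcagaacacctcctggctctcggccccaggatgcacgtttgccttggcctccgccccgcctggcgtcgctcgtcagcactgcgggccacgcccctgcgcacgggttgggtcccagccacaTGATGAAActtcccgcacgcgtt
Ppp1r15a: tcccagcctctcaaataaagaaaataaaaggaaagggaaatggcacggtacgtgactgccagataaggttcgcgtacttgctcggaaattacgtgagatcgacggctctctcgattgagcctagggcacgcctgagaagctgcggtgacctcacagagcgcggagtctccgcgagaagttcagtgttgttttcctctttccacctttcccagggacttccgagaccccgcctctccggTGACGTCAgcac
The composite element of Chac1 spans -193 to -186 relative to the start and is read on the opposite strand. That of Asns spans -23 to -16, and the cAMP response element of Ppp1r15a spans -12 to -5.

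The depth of single libraries, estimated from the size factors that genes with a single read reveal, spanned 11.0 to 17.8 M counts in brown fat (M standing for mega) and 11.4 to 31.8 M in quadriceps. The labelled tissues were checked against marker genes. The 7 brown adipocyte markers summed to 8380 CPM in brown fat, against 163 CPM in quadriceps. CPM here is a gene's share of the table's summed mean counts, scaled to 1e6. The 10 muscle fibre markers summed to 9057 CPM in brown fat, against 201403 CPM in quadriceps, so muscle transcripts were also present in the brown fat libraries. Adipocyte markers, 8 genes, summed to 24040.2 CPM in brown fat, against 1002 CPM in quadriceps, so transcripts of these markers were also present in the quadriceps libraries. How much of a member's level in either tissue came from other cell types was not tested. In bulk tissue a change in the number of cells of a type and a change in RNA per cell cannot be told apart.

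Of the 10 members 9 differed by more than 2-fold in level between brown fat and quadriceps, as did 66.1% of all 16882 shared genes, so a gap of that size is common between these tissues. Asns, the enzyme that makes asparagine, averaged 93.8 CPM in brown fat, against 1.79 CPM in quadriceps, a 52.3-fold gap. Trib3, a pseudokinase known as a feedback inhibitor of ATF4 and of AKT, averaged 41.6 CPM in brown fat, against 1.36 in quadriceps. By CPM, Asns stood at percentile 88.5 of all genes in brown fat and 41.2 in quadriceps, and Trib3 at percentile 75.2 in brown fat and 38.6 in quadriceps. Phgdh, the first enzyme of serine synthesis, averaged 7.24 CPM in brown fat and 0.546 in quadriceps. Psat1, the next enzyme of that pathway, averaged 7.43 CPM in brown fat and 1.67 in quadriceps. Both genes of serine synthesis were thus higher in brown fat. Sesn2, a leucine sensor that restrains mTORC1, averaged 52.8 CPM in brown fat and 4.92 CPM in quadriceps. Ddit3 averaged 23.6 CPM in brown fat and 2.44 CPM in quadriceps. Atf5 averaged 134 CPM in brown fat and 30.4 in quadriceps.

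The opposite order was seen for 3 members. Chac1, an enzyme that degrades glutathione, averaged 26.0 CPM in brown fat, against 111 CPM in quadriceps. Ppp1r15a averaged 40.7 CPM in brown fat, against 163 in quadriceps. Atf4 averaged 204 CPM in brown fat and 284 in quadriceps, and was the one member within 2-fold. Chac1 and Asns, whose promoters both hold the composite element, therefore stood on opposite sides, at log2 ratios of brown fat over quadriceps of -2.10 for Chac1 and 5.71 for Asns. The 2 tables were normalized separately, and each level is the authors' mean over 8 libraries of both genotypes. These gaps therefore have no error of their own and were not tested.

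Scaling moved these ratios but not their direction. The 10 most abundant genes took 9.27% of the summed means in brown fat and 28.1% in quadriceps, which lowers every other share in muscle. Over the 9282 genes whose mean reached 50 in both tables, the median log2 ratio of CPM was 0.909. Relative to that median the log2 ratio was 4.80 for Asns, 4.03 for Trib3, 2.82 for Phgdh, 2.51 for Sesn2 and 2.36 for Ddit3. It was 1.24 for Psat1 and 1.23 for Atf5. It was -1.39 for Atf4, -2.91 for Ppp1r15a and -3.01 for Chac1. All 10 were then past 2-fold, against 54.2% of the shared genes, with 7 higher in brown fat and 3 higher in quadriceps as before.

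**Figure D1:**
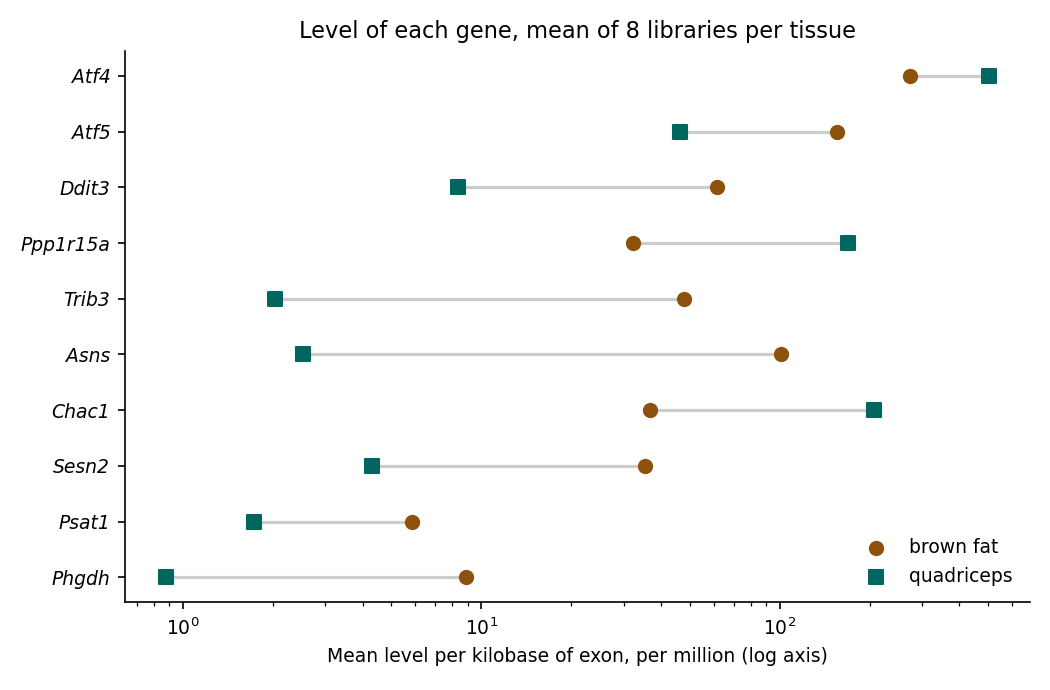
Mean level of each member per kilobase of exon, as CPM per kilobase rescaled to 1e6 (log axis), in brown fat (circles) and quadriceps (squares), each the mean of 8 libraries with no error available. Atf4 is the highest member in both tissues, and Atf4, Ppp1r15a and Chac1 are the 3 members whose square lies to the right of the circle.

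Within a tissue, genes were ordered by CPM per kilobase of exon, rescaled to 1e6, which allows for transcript length. In brown fat Atf4 led at 274, at percentile 96.9 of all genes, and Atf5 followed at 156 and Asns at 101. Ddit3 at 61.4, Trib3 at 47.6, Chac1 at 36.9, Sesn2 at 35.2 and Ppp1r15a at 32.2 formed a middle group within a 2-fold range. Phgdh at 8.88 and Psat1 at 5.88 were last. In quadriceps Atf4 also led, at 501 and percentile 98.8, followed by Chac1 at 207, Ppp1r15a at 169 and Atf5 at 46.4. The other 6 lay between 8.34 for Ddit3 and 0.878 for Phgdh, with Psat1 next to last at 1.74. Muscle thus showed a high group of Atf4, Chac1 and Ppp1r15a, while Asns, at 2.52 on that scale, stood at percentile 43.9. Whether neighbours in these orders differ beyond the spread among libraries cannot be said, since that spread is not in the tables for levels.

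The genotype comparison asks what the changed upstream frame of Ppargc1a goes with in each tissue, and it was read here for the stress response mRNAs. The log2 fold change of Ppargc1a mRNA was 0.0016 ± 0.11 (SE) in brown fat and 0.06 ± 0.13 (SE) in quadriceps, from the authors' deposited table of each tissue. All fold changes here divide uORF-TAA by Wild-type. This direction rests on reading the genotype named first in each table as the numerator, and an error in that reading would turn every sign of the tissue concerned.

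None of the 10 members passed in brown fat. There, 0.0863% of the 9272 genes with a deposited adjusted p passed 0.05 in the DESeq2 test (8 genes), and 8 members had an adjusted p, each of 1.00. At an unadjusted p under 0.05 the count of members was also 0, against 2.07% of all 17973 genes with a p. None passed in quadriceps either, where DESeq2 called 0% of 17521 genes and 2% had an unadjusted p under 0.05, again with 0 members. The smallest unadjusted p of a member was 0.115, for Asns in brown fat, and 0.129, for Psat1 in quadriceps. Both lay above the threshold before any adjustment over genes. The shares of 2.07% and 2% lie below what calibrated p-values would give at 0.05 without any effect. The deposited DESeq2 p-values may therefore be miscalibrated.

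Of the regulators, Atf4 had an estimated log2 fold change of 0.15 ± 0.12 (SE) for brown fat in the authors' deposited table, where it averaged 2610 normalized counts. In the authors' deposited table of quadriceps it had -0.12 ± 0.11 (SE) at 5969. The signs were opposite, and neither estimate passed the test. Atf5 had -0.07 ± 0.11 (SE) in brown fat and -0.11 ± 0.13 (SE) in quadriceps in the authors' deposited tables. Ddit3 had -0.10 ± 0.13 (SE) in brown fat and 0.05 ± 0.13 (SE) in quadriceps in the authors' deposited tables. The 3 bZIP factors therefore showed no common direction within either tissue, and each interval included 0.

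Of the feedback genes, Ppp1r15a had the smallest effect of any member, with -0.00071 ± 0.13 (SE) in brown fat in the authors' deposited table. In quadriceps the authors' deposited table gave it -0.07 ± 0.12 (SE), although its mean normalized count of 3427 was among the higher ones. Trib3 had -0.08 ± 0.13 (SE) in brown fat and 0.02 ± 0.13 (SE) in quadriceps in the authors' deposited tables. Its mean normalized count was 533 in brown fat but only 28.6 in quadriceps. Chac1 had -0.10 ± 0.10 (SE) in brown fat and -0.07 ± 0.13 (SE) in quadriceps in the authors' deposited tables. Sesn2 had 0.07 ± 0.12 (SE) in brown fat and -0.02 ± 0.13 (SE) in quadriceps in the authors' deposited tables. These feedback and effector genes stayed within 0.1 of 0 on the log2 scale in both tissues, less than 1 standard error for each.

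The 3 amino acid synthesis genes were among the 4 highest estimates in brown fat, with Atf4, and Psat1 and Phgdh had the 2 highest in quadriceps. Asns had 0.16 ± 0.10 (SE) at 1203 normalized counts in the authors' deposited table of brown fat. In quadriceps it had -0.04 ± 0.13 (SE) at 37.7 in the authors' deposited table. Psat1 had 0.14 ± 0.11 (SE) in brown fat at 95.3, and 0.19 ± 0.13 (SE) in quadriceps at 35.2, in the authors' deposited tables. Phgdh had 0.13 ± 0.12 (SE) in brown fat at 92.8, and 0.08 ± 0.12 (SE) in quadriceps at 11.5, in the authors' deposited tables. Both serine synthesis genes were above 0 in both tissues, and neither passed the test in either one. The brown fat table gives no adjusted p for Psat1 and Phgdh, whose mean counts lie under 106, the smallest mean with an adjusted p there. Adjusted over every gene with a p, they did not pass either (adjusted p = 1.00 for each, Benjamini-Hochberg on the DESeq2 p-values), and 0.0334% of those genes did.

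**Figure D2:**
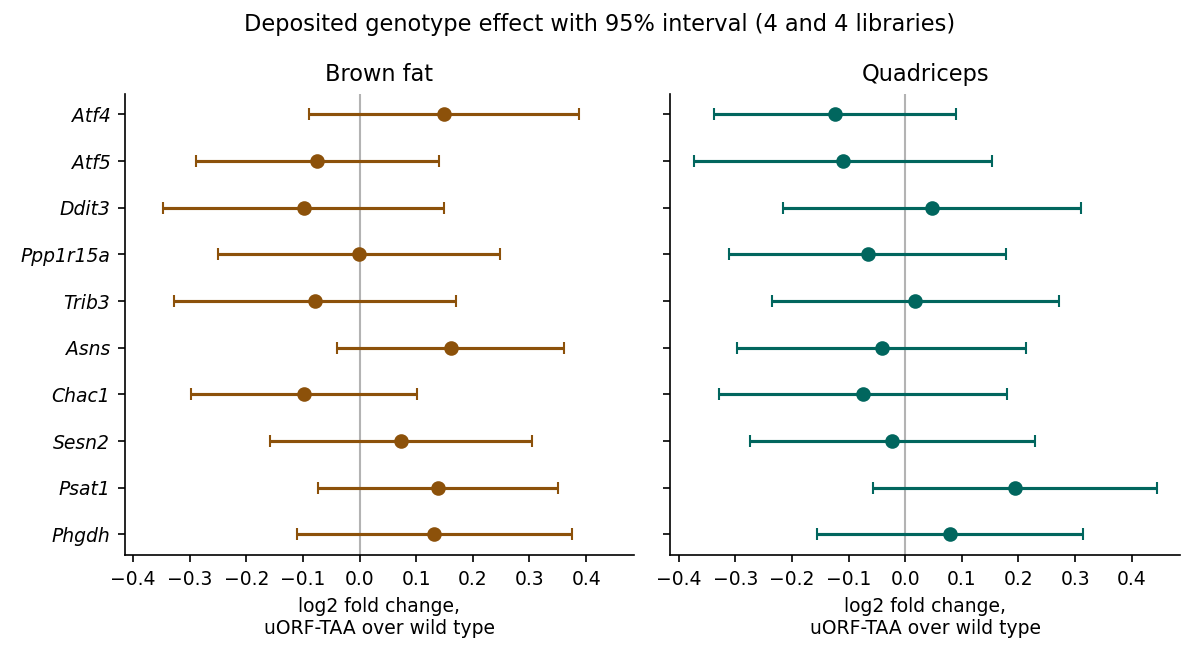
Deposited log2 fold change of each member, uORF-TAA over Wild-type, with the 95% interval from the deposited standard error (4 libraries per genotype), in brown fat (left) and quadriceps (right). Every interval crosses 0, from a lowest bound of -0.37 for Atf5 to a highest of 0.44 for Psat1, both in quadriceps.

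As a group the members were split in both tissues. In brown fat 5 of 10 were above 0, against 51.2% of all genes with a p, and the median log2 fold change was 0.036 for the members and 0.0015 for all genes. In quadriceps 4 of 10 were above 0, against 51.7% of all genes, and the medians were -0.032 and 0.0024. The 95% intervals on the deposited scale reached from 0.786-fold to 1.31-fold in brown fat and from 0.772-fold to 1.36-fold in quadriceps. The deposited log2 estimate of a member had to reach a certain size for an unadjusted p of 0.05. That size was 0.20 to 0.25 in brown fat and 0.21 to 0.26 in quadriceps, depending on the member.

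These intervals are on a shrunken scale and are narrower than unshrunken ones. Across genes the deposited standard error has a ceiling of 0.127 in brown fat and 0.135 in quadriceps, rising with mean count up to it and, for many genes of higher mean, lying below it again, as a normal prior centred on 0 would give, with an SD of 0.255 and 0.269 on the log2 scale. Under that prior each standard error has 2 possible unshrunken values, and the test statistic stays the same. Over the members the smaller value ran from 0.127 to 0.252 in brown fat and from 0.138 to 0.260 in quadriceps. The difference needed for an unadjusted p of 0.05 was therefore larger on the unshrunken scale. For Atf4 the smaller value gave 0.23 ± 0.19 (SE) in brown fat and -0.16 ± 0.14 (SE) in quadriceps. The larger gave 0.42 ± 0.34 and -0.60 ± 0.53. For Psat1 in brown fat the smaller gave 0.18 ± 0.14 (SE) and the larger 0.59 ± 0.46. For Phgdh in quadriceps, where a mean of 11.5 counts makes the smaller value impossible by counting error alone, the unshrunken estimate was 0.29 ± 0.44 (SE). Differences of that size were not detectable at this depth and spread, and the tests that were not passed do not show that the genotypes have equal mRNA of these genes.

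The precision of the members was set beside that of the 200 genes nearest in mean count. In brown fat the standard error of Ppp1r15a, 0.127, was above that of all 200 such genes, and that of Trib3 above 194, of Ddit3 above 187, of Atf4 above 182 and of Sesn2 above 173. Atf5 was above 148, Asns above 118, Phgdh above 76, Chac1 above 37 and Psat1 above 6. In quadriceps Atf5 was above 197 of 200, Phgdh above 167, Chac1 above 164, Ppp1r15a above 162 and Ddit3 above 124. Sesn2 was above 80 there, Atf4 above 75, Trib3 above 41, Psat1 above 18 and Asns above 15. The members thus lay on both sides of genes of like mean count in each tissue. Near the ceiling the smaller and larger unshrunken values lie close together, so for Ppp1r15a in brown fat they were 0.252 and 0.257. A standard error below the ceiling can stand for a more precise or a less precise comparison, since both unshrunken values are possible. The exception is Phgdh in quadriceps, where the smaller one is not. This order is therefore a description of the deposited errors alone.

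**Figure D3:**
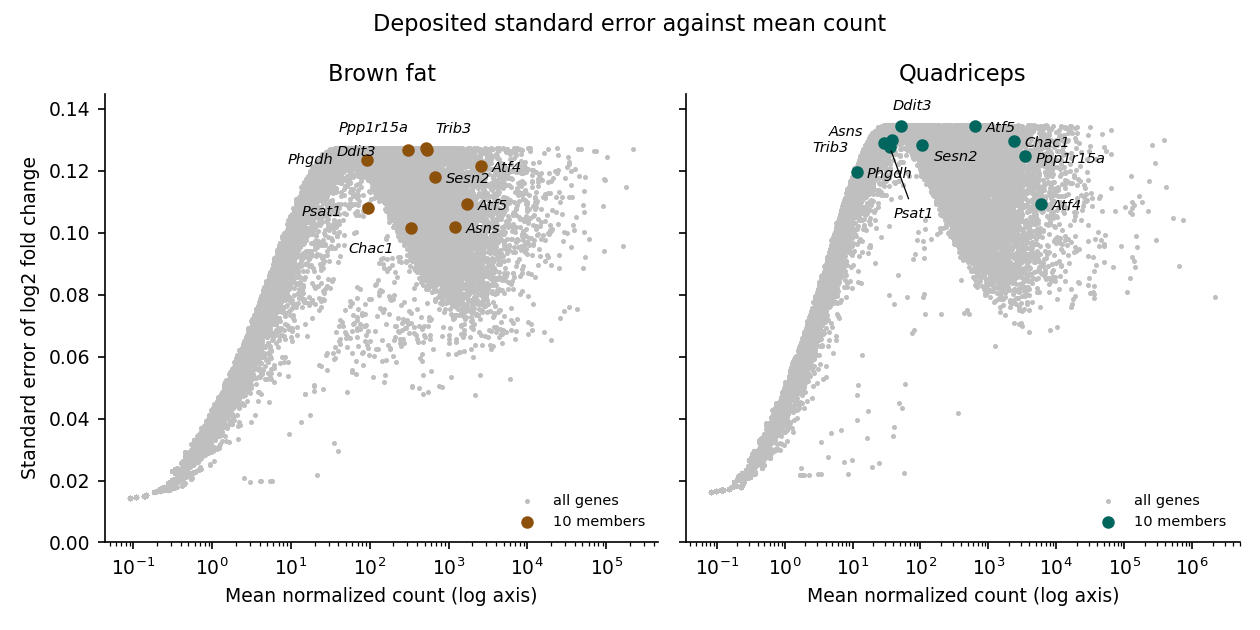
Deposited standard error of the log2 fold change against mean normalized count (log axis) for all genes (grey) and the 10 members (coloured), in brown fat and quadriceps. In brown fat Ppp1r15a, Trib3 and Ddit3 lie at the ceiling of 0.127, and in quadriceps Atf5 and Ddit3 lie at that of 0.135.

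The genotype effects of the tissues were compared gene by gene. The normal test on the deposited fold changes called 0% of 16844 genes at an adjusted p of 0.05, and 1.16% had an unadjusted p under 0.05, with 0 members among them. In the reading used here Atf4 came closest, with 0.27 ± 0.16 (SE) for brown fat minus quadriceps, an unadjusted p of 0.0949 and an adjusted p of 1.00 by that test. This test takes the tissues as independent, and it is not known whether both came from the same animals. The share of 1.16% lies below what calibrated p-values would give at 0.05 without any effect. The p-values of this test may therefore be miscalibrated. Asns followed with 0.20 ± 0.17 (SE), and the smallest difference was -0.02 ± 0.16 (SE), for Chac1. The 2 estimates of a gene had opposite signs for 5 of the 10 members, a count that depends on the relative reading of the tables. With the sign of brown fat turned, the difference of Atf4 was -0.03 at an unadjusted p of 0.875. Psat1 then had -0.33 ± 0.17 (SE) at an unadjusted p of 0.047, the 1 member under 0.05, as 3.08% of all genes were. Its adjusted p was 1.00 by the normal test, which called 0.0356% of genes and 0 members in that reading.

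The wider pathway was described with 11 lists, which held 122 further genes in both tables, of 124 listed. Some lists share genes (Ppp1r15b, Cebpa, Cebpb, Eprs and Nars), so their medians are not separate results. None of the 122 passed the deposited DESeq2 test in either tissue. At an unadjusted p under 0.05 there were 3 higher and 4 lower in brown fat, which is 5.74% against 2.07% of all genes. In quadriceps there were 3 higher and 1 lower, 3.28% against 2%. The shares of all genes cover genes of every mean count, whereas most listed genes had a mean count of at least 50. Shares for genes of like mean count were not computed. Whether the lists exceed such genes in either tissue was therefore not tested. The median log2 fold change of the listed genes was 0.0017 in brown fat, where 64 of 122 were above 0, and -0.024 in quadriceps, where 50 were. Genes named below were picked by smallest p within a list and tissue, so their estimates may be more extreme than those of the rest.

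Of the machinery of the switch, the 4 eIF2alpha kinases had medians of 0.0036 in brown fat and -0.013 in quadriceps, with none past an unadjusted p of 0.05. Eif2ak4, the kinase GCN2 that senses uncharged tRNA, had -0.09 in brown fat and -0.21 ± 0.13 (SE) in quadriceps in the authors' deposited tables. The 8 subunits of eIF2 and its exchange factor eIF2B had medians of -0.027 in brown fat and -0.042 in quadriceps, with 2 of 8 above 0 in each. Ppp1r15b, the constitutive counterpart of Ppp1r15a, had the smallest p of any pathway gene, with 0.33 ± 0.09 (SE), an unadjusted p of 0.000454 and an adjusted p of 0.263 for brown fat in the DESeq2 fit of the authors' deposited table. In quadriceps the authors' deposited table gave it -0.09. The difference between the tissues for Ppp1r15b was 0.42 ± 0.15 (SE), with an unadjusted p of 0.0063 and an adjusted p of 1.00 by the normal test. In the other reading of the brown fat table it was -0.24, at an unadjusted p of 0.125. Among relatives of the members in the same list, Sesn1, a sestrin known as a target of p53 and FOXO factors, had -0.38 ± 0.13 (SE) in brown fat and -0.20 in quadriceps in the authors' deposited tables. Trib2 had 0.31 ± 0.13 (SE) in quadriceps in the authors' deposited table. The list's medians were 0.055 in brown fat and 0.0074 in quadriceps, and 0 of its 10 genes passed.

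Other genes with regulatory uORFs, 10 measured, had 5 above 0 in brown fat and 2 above 0 in quadriceps, with medians of 0.011 and -0.074. Azin1, an inhibitor of the antizyme that controls polyamine synthesis, had 0.34 ± 0.13 (SE) in quadriceps in the authors' deposited table. In brown fat Azin1 had -0.0048 in the authors' deposited table. Cebpa, whose uORF sets the ratio of its protein forms, had 0.23 ± 0.12 (SE) in brown fat in the authors' deposited table. The 9 bZIP partners of ATF4 had 5 above 0 in brown fat and 1 above 0 in quadriceps, with medians of 0.053 and -0.099. In the authors' deposited table of quadriceps, Cebpd had -0.26 ± 0.13 (SE) and Cebpb -0.21 ± 0.12 (SE), with unadjusted p of 0.0572 and 0.0857 in that DESeq2 fit. None of these genes passed.

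Among the targets, the 14 enzymes of serine, glycine and one-carbon metabolism had medians of -0.014 in brown fat, or -0.0050 over the 7 with a mean count of at least 50, and 0.0031 in quadriceps. Cbs, which joins serine with homocysteine, had -0.30 ± 0.13 (SE) in brown fat and 0.066 in quadriceps in the authors' deposited tables. Shmt1, which converts serine to glycine in the cytosol, had 0.26 ± 0.13 (SE) in quadriceps in the authors' deposited table. The 10 amino acid transporters had medians of -0.068 in brown fat and -0.024 in quadriceps. Over those with a mean count of at least 50 the medians were 0.021 in brown fat (6 genes) and -0.085 in quadriceps (5 genes), so the sign in brown fat turned without the genes of low count. The glutamine transporter gene Slc1a5 had 0.20 ± 0.10 (SE) in brown fat in the authors' deposited table. The 20 cytosolic aminoacyl-tRNA synthetases had 8 above 0 in brown fat and 6 in quadriceps, medians of -0.012 and -0.049, and no gene with an unadjusted p under 0.05 in either tissue. Other targets of ATF4 or CHOP, 15 measured, had medians of 0.0016 in brown fat and -0.047 in quadriceps, or 0.00085 and -0.10 over those with a mean count of at least 50. Herpud1, a membrane protein of endoplasmic reticulum associated degradation, had -0.35 ± 0.12 (SE) in brown fat and -0.18 in quadriceps in the authors' deposited tables. Ddit4, an inhibitor of mTORC1 also induced by glucocorticoids, had -0.34 ± 0.13 (SE) in quadriceps and -0.061 in brown fat in the authors' deposited tables. Ero1l, an oxidase of the endoplasmic reticulum known as a target of CHOP, had 0.23 ± 0.11 (SE) in brown fat in the authors' deposited table. None of these values passed the deposited DESeq2 test over all genes.

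Lists of neighbouring stress pathways were also without a called gene. The 17 genes of endoplasmic reticulum chaperones and of the IRE1 and ATF6 arms had medians of 0.041 in brown fat and -0.018 in quadriceps. Ern1, which encodes the sensor IRE1, had -0.26 ± 0.13 (SE) in brown fat in the authors' deposited table. The 10 mitochondrial stress sensors and chaperones had 9 above 0 in brown fat and 6 in quadriceps, with medians of 0.036 and 0.026. Hspd1, the mitochondrial chaperonin, had 0.09 ± 0.13 (SE) in brown fat and 0.11 ± 0.10 (SE) in quadriceps in the authors' deposited tables.

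**Figure D4:**
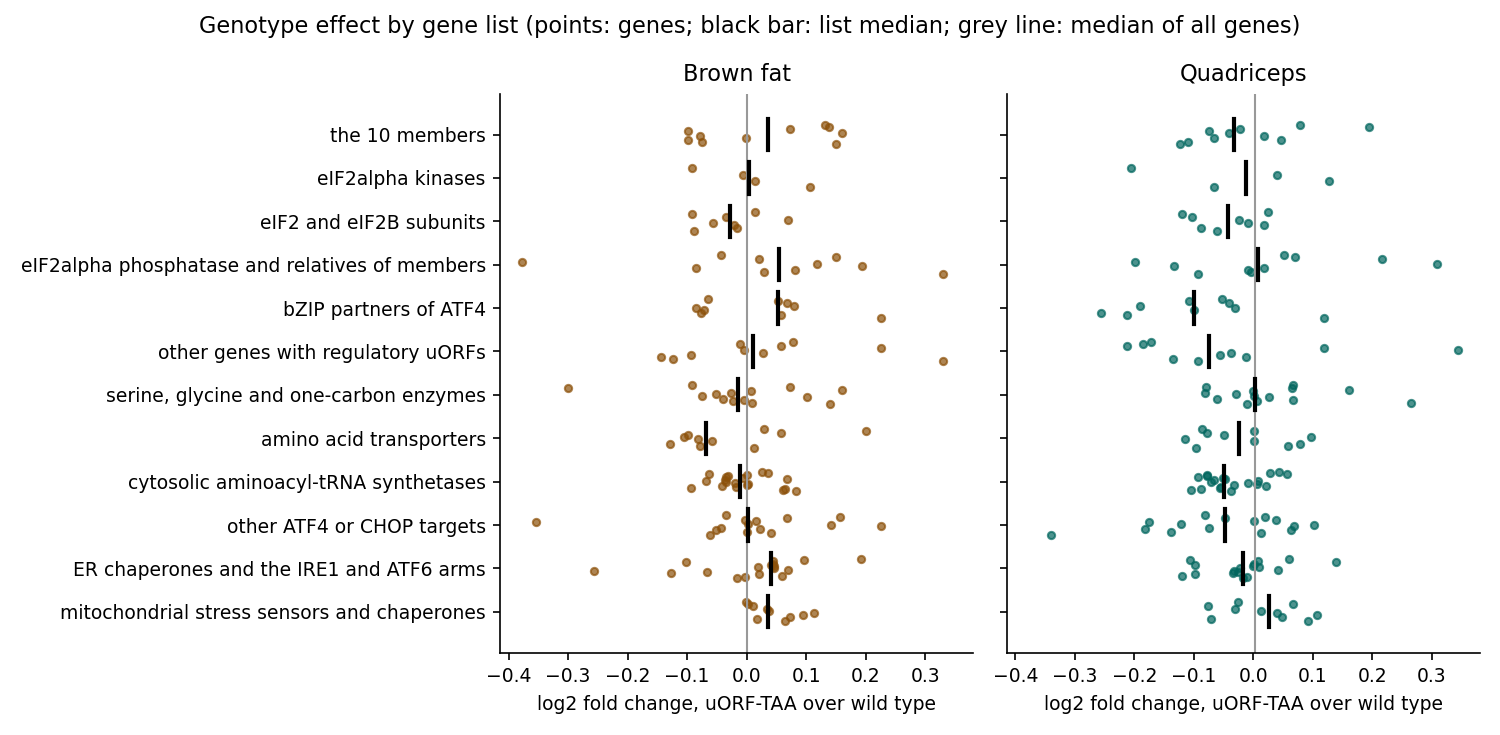
Log2 fold change, uORF-TAA over Wild-type, of each gene (points) of the 10 members and of the 11 pathway lists, with the list median (black bar) and the median of all genes (grey line), in brown fat and quadriceps. List medians over all measured genes range from -0.068 (amino acid transporters, 0.021 without those of mean count under 50) to 0.055 in brown fat and from -0.099 to 0.026 in quadriceps.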

How the data were processed

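Libraries were made from mRNA with a stranded kit and read from one end, per the labels' protocols. The submitters' processing notes name STAR 2.5.1b, mm9 and DESeq2 1.10.1 without a role for each. The annotation, the read counter and its use of strand were not given in the sources used here. Each tissue has one deposited table. Its mean normalized count is treated as a signal that the authors averaged over 8 libraries. The authors gave the fold change and its standard error as log2 values, and the deposited Wald statistic, a score, is their ratio. The deposited p-value follows from it, with the adjusted p over the genes the authors kept. Among genes in the tables, exons of Atf5 overlap Nup62 and Il4i1 on the opposite strand by at most 82 bases, and exons of Ddit3 overlap Mars by at most 68 bases, in GENCODE M21. Phgdh has an annotated processed pseudogene, Phgdh-ps1. Counts of these 3 genes are uncertain to that extent. Pseudogenes were searched only by name, as a member's symbol followed by ps, so those with other names would be missed for any member.

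A gene was called at a deposited adjusted p under 0.05. CPM is the mean over the table's summed means, scaled to 1e6, and levels per kilobase use the union of exons of GENCODE M21 basic transcripts. For leaders, 1 coding transcript a gene was taken by APPRIS rank and coding length, with ties settled for the longest whole transcript. Depth was recovered from 8 levels of mean count, each shared by at least 69 genes in brown fat and 61 in quadriceps, and was not assigned to samples. Named are the 10 members, Ppargc1a and, per list and tissue, up to 3 genes of smallest p with a mean of at least 10. The members, lists and tests were chosen with earlier results of these data known. The unshrunken values and the median scaling of levels were added after the values were seen. Where p-values are quoted, they measure the spread among the libraries of a tissue. Python 3.11.15, pandas 2.3.3, numpy 2.4.6 and scipy 1.17.1 were used. The adjustment and the test between tissues were run on simulated normal values, independent between tissues. The recovery of unshrunken values was run on known inputs. These runs check the code and not whether the p-values are calibrated for these data.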

Additional observations from a re-analysis of the deposited data

How the results depend on the processing

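The number of members called at an adjusted p under 0.05 was 0 in brown fat, 0 in quadriceps and 0 for the difference between the tissues. In each tissue it stayed at 0 with adjustment over every gene with a p, a mean count of at least 50, an adjusted p under 0.1, an unadjusted p under 0.05, and centring on the median fold change. For the difference it stayed at 0 when both tables were limited to means of 50 or more, an unadjusted p under 0.05, centring, and the opposite reading of the brown fat table. With the opposite reading and an unadjusted p under 0.05 together it was 1, Psat1, a combination added after the data were seen. An adjusted p is never below its unadjusted p. The smallest unadjusted p of a member was 0.115 in brown fat and 0.129 in quadriceps by DESeq2. For the difference it was 0.0949 by the normal test. Settings that changed only the adjustment, its threshold or the mean count could thus give no count but 0, and are not separate checks. Centring left the sign of every member in both tissues. With a mean count of at least 50, the median of the amino acid transporters in brown fat turned to 0.021, over 6 of 10 genes. The other list medians kept their sign, 17 within 1.5 times, and 4 moved by over 1.5 times. These were -0.085 for the amino acid transporters in quadriceps, -0.0050 for the serine, glycine and one-carbon enzymes in brown fat, and 0.00085 in brown fat and -0.10 in quadriceps for other ATF4 or CHOP targets. Relative to the median ratio of the tables, the log2 level of brown fat over quadriceps moved to 4.80 for Asns, 4.03 for Trib3, 2.82 for Phgdh, 2.51 for Sesn2, 2.36 for Ddit3, 1.24 for Psat1, 1.23 for Atf5, -1.39 for Atf4, -2.91 for Ppp1r15a and -3.01 for Chac1, with every sign as before. No paired analysis was possible because the tables hold no values of single libraries, and leaving out a replicate was not run for the same reason. Depth limits Phgdh, Trib3, Psat1 and Asns most, with mean counts of 11.5 to 37.7 in quadriceps.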
